A study of Gallus gallus with 2 samples.

Results

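AP-1, MYC and other immediate early genes were described in hearts of chicken embryos exposed in the egg to a nitric oxide (NO) donor. The set was a list of 10 gene symbols, of which 8 were matched to a row of the deposited tables: FOS, FOSL2, JUN, ATF3, EGR1, MYC, MYCN and DUSP1. JUND and IER2 were matched to no symbol and are not analysed here. The 8 genes are part of 16737 genes in all, of which 10824 averaged 1 FPKM or more across the pair of libraries and are called measured. FPKM counts fragments relative to the length of the gene model and to the mapped fragments in the library.

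The NO library came from 1 pool of 10 hearts of embryos given 20 µl of Spermine NONOate at 10 µM, an NO-releasing compound whose carrier is spermine. The control library came from 1 pool of 10 hearts of embryos given 20 µl of 1X PBS, the vehicle. Both groups were fertilized brown leg horn eggs, kept at 37 °C for 24 h before the injection into the air sac, with hearts removed at 45 h; the labels do not make clear from when that time was counted. Spermine alone was not given to either group, so NO and spermine cannot be told apart. With 1 pool per group there is no replicate check, no SD and no test: the intervals printed are the deposited 95% intervals, which cover estimation within 1 library.

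Immediate early genes are switched on within minutes of a signal at the cell surface, without new protein synthesis, mostly through MAP kinases and the factor SRF with its partners. FOS and JUN proteins pair through a leucine zipper to form AP-1, which binds DNA and drives genes of growth, migration and stress. MYC and MYCN pair with MAX and raise the output of genes for ribosome building and the cell cycle; in mouse embryos, Mycn is needed for heart muscle cells to multiply.

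All 8 genes were lower in the NO library than in the control library. FOS and FOSL2 were both 3.20-fold lower, JUN 2.98-fold, MYCN 2.72-fold and MYC 2.11-fold lower, whereas DUSP1, EGR1 and ATF3 were 1.53-fold, 1.35-fold and 1.29-fold lower. These folds are ratios of FPKM + 1 and so come out smaller than the plain ratio, most of all for weakly expressed genes. At least 1.5-fold lower were 6 of the 8, against 22.4% of all measured genes, and at least 2-fold lower were 5, against 10.3%. At least 1.5-fold higher were 0, against 9.59% of all measured genes. The deposited intervals of the 2 libraries did not overlap for any of the 8, a state shared by 70.9% of measured genes, 43.6% being apart and lower. Below 0 on the log2 scale were all 8 genes and 58.7% of all measured genes. FOSL2 counted as measured through the control library alone. Of the 7 genes with at least 1 FPKM in both libraries, 5 were at least 1.5-fold lower and 4 at least 2-fold lower. The share of all genes under that stricter filter was not counted. The members were chosen with earlier results of these data known, so these counts describe the list and test nothing.

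**Figure D1:**
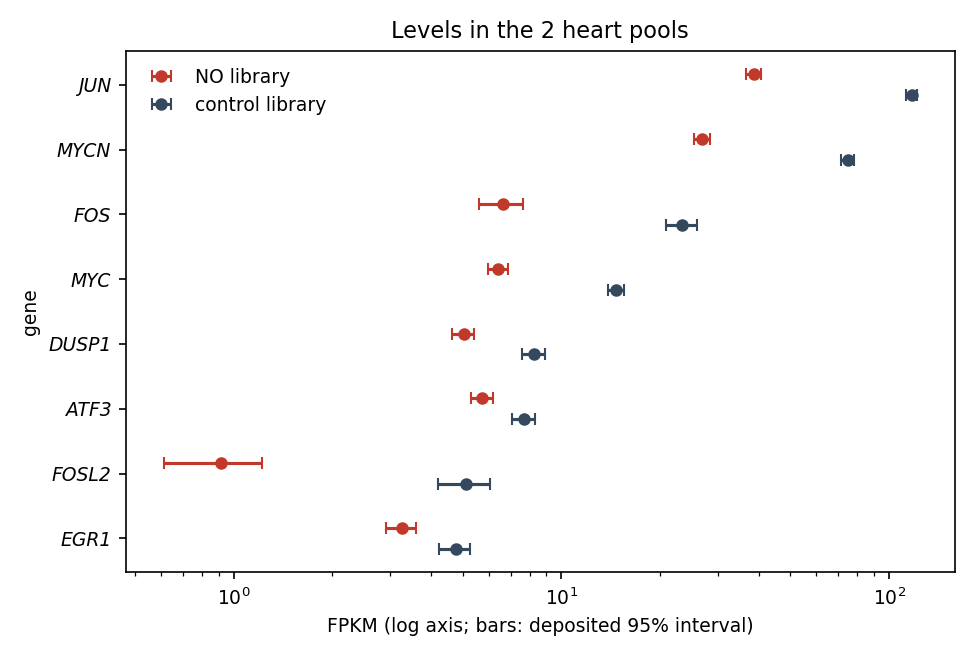
FPKM of the 8 genes on a log axis, with the NO library above the control library for each gene; bars are the deposited 95% intervals of 1 pool each. Each NO point lies left of its control point with no overlap of the bars, with the widest separation for FOSL2 (0.914 FPKM in the NO library and 5.13 FPKM in the control library).

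JUN, the main partner in AP-1 dimers, was the most abundant of the set in both libraries. JUN (ENSGALG00000010870, galGal4 chromosome 8, 25267213 to 25268157) had 38.6 FPKM (interval 36.6 to 40.7) in the NO library and 117 FPKM (112 to 122) in the control library. The control level was above that of 95.2% of measured genes, and the NO level above that of 84.8%. The log2 difference of FPKM + 1 was −1.57 (−1.67 to −1.48), NO minus control, and 3.32% of measured genes were at least as low. The JUN locus spans 945 bases in these files, so its FPKM rests on a short gene model.

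FOS, which pairs with JUN and cannot form a stable dimer with itself, was also much lower. FOS (ENSGALG00000028037, chromosome 5, 37501649 to 37502995) was at 6.62 FPKM (5.62 to 7.63) in the NO library and 23.4 FPKM (20.8 to 25.998) in the control library. The log2 difference was −1.68 (−1.93 to −1.44), with 2.75% of measured genes at least as low. In the NO library FOS lay below the median measured gene (9.02 FPKM), and in the control library above it (10.4 FPKM).

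FOSL2, a FOS relative that lacks a strong activation domain, had the lowest level of the set in the NO library. FOSL2 (ENSGALG00000010036, chromosome 3, 26737453 to 26743407) was at 0.914 FPKM (0.611 to 1.22) in the NO library and 5.13 FPKM (4.19 to 6.06) in the control library, a log2 difference of −1.68 (−1.9999 to −1.36). Without the added 1, the FPKM itself was 5.60-fold lower, against 3.53-fold for FOS and 3.03-fold for JUN. The interval widths correspond to about 36.2 fragments in the NO library and 121 in the control library, so FOSL2 was the least precisely measured of the 8.

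ATF3, a stress-induced factor that pairs with JUN proteins, differed least. ATF3 (ENSGALG00000025887, chromosome 3, 21184776 to 21188556) was at 5.74 FPKM (5.31 to 6.17) in the NO library and 7.68 FPKM (7.09 to 8.28) in the control library. Its log2 difference was −0.37 (−0.50 to −0.23), and 33.1% of measured genes were at least as low, so it lay well inside the bulk of genes.

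The makeup of the matched AP-1 genes of the set differed between the libraries mainly in ATF3. JUND, JUNB, FOSB and FOSL1 were matched to no symbol and are left out of it. Of the summed FPKM of JUN, FOS, FOSL2 and ATF3, 51.9 in the NO library and 153 in the control library, JUN held 74.4% in the NO library and 76.4% in the control library. ATF3 held 11.1% in the NO library and 5.01% in the control library. The ratio of JUN to ATF3 was 6.73 (6.15 to 7.39) in the NO library and 15.2 (14.0 to 16.7) in the control library, intervals that do not overlap. The ratio of JUN to FOS was 5.83 (5.01 to 6.93) in the NO library and 5.003 (4.47 to 5.66) in the control library, and these intervals overlap. Such ratios within a library do not depend on how the libraries are scaled. Their intervals cover estimation within 1 library and not the spread between pools. Deposited intervals of single genes were apart in 70.9% of all measured genes.

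MYCN and MYC were lower together, with MYCN more abundant than MYC in both libraries. MYCN (ENSGALG00000016462, chromosome 3, 98778414 to 98780948) was at 26.9 FPKM (25.4 to 28.3) in the NO library and 74.7 FPKM (71.5 to 77.9) in the control library. Its log2 difference was −1.44 (−1.54 to −1.34), and 4.29% of measured genes were at least as low. MYCN ranked second to JUN among the 8 genes in each library.

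MYC (ENSGALG00000016308, chromosome 2, 139316928 to 139321894) was at 6.42 FPKM (5.98 to 6.86) in the NO library and 14.7 FPKM (13.8 to 15.5) in the control library. The log2 difference was −1.08 (−1.19 to −0.96), smaller than that of MYCN, and 8.92% of measured genes were at least as low. MYCN stood at 4.18 times MYC (3.83 to 4.57) in the NO library and at 5.09 times MYC (4.75 to 5.47) in the control library. These intervals do not overlap, but they cover estimation within 1 library only. For single genes, the deposited intervals were apart in 70.9% of all measured genes.

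EGR1, a zinc finger factor that ERK signalling induces through SRF, was modestly lower. EGR1 (ENSGALG00000007669, chromosome 13, 17704810 to 17707611) was at 3.25 FPKM (2.92 to 3.59) in the NO library and 4.75 FPKM (4.23 to 5.27) in the control library, a log2 difference of −0.44 (−0.61 to −0.26). As many as 29.2% of measured genes were at least as low.

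DUSP1, a phosphatase that switches off MAP kinases and is itself induced by them, lay just past the 1.5-fold mark. EGR1 fell short of that mark, at 1.35-fold lower. DUSP1 (ENSGALG00000003706, chromosome 13, 8380376 to 8384733) was at 5.03 FPKM (4.63 to 5.43) in the NO library and 8.25 FPKM (7.59 to 8.91) in the control library. The log2 difference was −0.62 (−0.76 to −0.48), and 21.0% of measured genes were at least as low. It moved to −0.50 with trimmed mean scaling, −0.49 with upper quartile scaling and −0.40 with 5 FPKM added, each less than 1.5-fold. The ratio of DUSP1 to EGR1 was 1.55 (1.36 to 1.76) in the NO library and 1.74 (1.52 to 1.99) in the control library, with overlapping intervals.

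**Figure D2:**
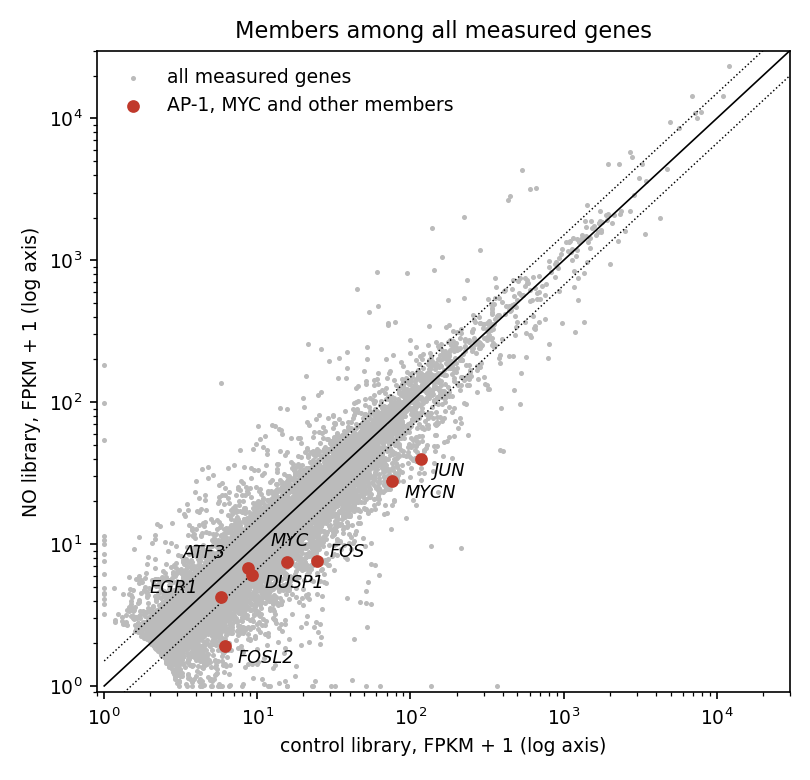
FPKM + 1 of each measured gene (grey) in the NO library against the control library, both on log axes, with the 8 genes in red; the solid line marks equal values and the dotted lines 1.5-fold differences. JUN, MYCN, FOS, MYC and FOSL2 lie clearly below the lower dotted line, DUSP1 on it, and EGR1 and ATF3 between the lines.

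From high to low, the order in the NO library was JUN, MYCN, FOS, MYC, ATF3, DUSP1, EGR1 and FOSL2. In the control library it was JUN, MYCN, FOS, MYC, DUSP1, ATF3, FOSL2 and EGR1. In the NO library the intervals of neighbours in the order overlapped for FOS with MYC, MYC with ATF3 and ATF3 with DUSP1, while those of FOS and MYC lay wholly above that of DUSP1. In the control library the intervals overlapped for DUSP1 with ATF3 and for FOSL2 with EGR1. FPKM is per length of the gene model, and models that lack untranslated parts can shift a level relative to another gene.

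As deposited, the median measured gene was itself lower in the NO library, at −0.11 on the log2 scale. Trimmed mean scaling moved that median up by 0.12, to 0.013, and upper quartile scaling up by 0.13, to 0.020. The sign of the median thus depended on the scaling. Genes at least 1.5-fold higher made up 30.02% of all genes past 1.5-fold in either direction as deposited. That share was 41.7% with trimmed mean scaling and 42.5% with upper quartile scaling. Relative to the median gene, the 8 differences ran from −1.57 for FOS and FOSL2 to −0.26 for ATF3. In each of the 8 alternatives tried, every one of the 8 genes that was measured kept a log2 difference below 0. Only the 3 rescalings could have changed a sign. They shifted the libraries against each other by at most 1.11-fold, less than the smallest plain ratio, 1.34-fold for ATF3.

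**Figure D3:**
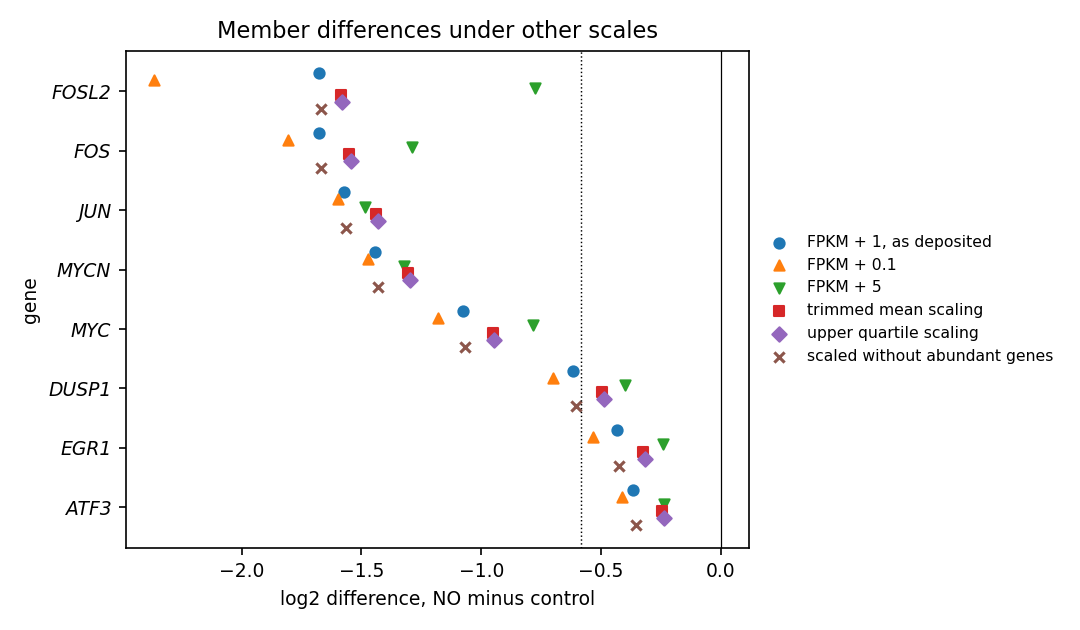
Log2 difference, NO minus control, of the 8 genes under 3 added constants and 3 rescalings (symbols); the dotted line marks 1.5-fold lower and the solid line no difference. FOSL2 spreads most, between −2.36 with 0.1 FPKM added and −0.78 with 5 FPKM added, and DUSP1 alone has symbols on both sides of the dotted line.

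Other genes of these pathways were given as 6 lists. Of 107 measured genes in them, 29 (27.1%) were at least 1.5-fold lower and 4 at least 1.5-fold higher, against 22.4% and 9.59% of all measured genes. The share lower over the 6 lists together was thus near the background, while by list it ran from 12.5% to 43.75%. With trimmed mean scaling 20 of these genes were at least 1.5-fold lower and with upper quartile scaling 19, beside 1944 and 1916 of all measured genes.

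Among the other AP-1 and related leucine zipper factors, 2 of 13 measured genes (15.4%) were at least 1.5-fold lower and 0 higher. The shares of all measured genes were 22.4% and 9.59%. The median log2 difference of the list was −0.29. JDP2, a repressor that pairs with JUN, was at 3.65 FPKM in the NO library and 10.0 FPKM in the control library, −1.25 (−1.60 to −0.91) on the log2 scale. BATF3, another partner of JUN proteins, was at 2.60 FPKM in the NO library and 6.24 FPKM in the control library. ATF4, a factor of the amino acid and unfolded protein response, was far more abundant, at 243 FPKM in the NO library and 351 FPKM in the control library, 1.45-fold lower. FOSB, FOSL1 and JUNB were matched to no symbol.

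The MYC network list had 7 of 16 measured genes (43.75%) at least 1.5-fold lower and 0 higher, with a median of −0.47. The shares of all measured genes were 22.4% and 9.59%. MAX, the obligate partner of MYC proteins, was at 18.8 FPKM (17.0 to 20.6) in the NO library and 36.3 FPKM (32.8 to 39.8) in the control library. MYCL, the third MYC paralogue, was at 28.9 FPKM (27.7 to 30.1) in the NO library and 52.7 FPKM (50.5 to 54.9) in the control library. In each library its level per length was above that of MYC. The MYCL interval overlapped that of MYCN (25.4 to 28.3) in the NO library and lay below it (71.5 to 77.9) in the control library. MNT, which pairs with MAX and represses MYC targets, was 2.15-fold lower.

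Genes known as MYC targets were mostly close to level. Of 22 measured, 6 (27.3%) were at least 1.5-fold lower and 1 (4.55%) higher, against 22.4% and 9.59% of all measured genes. Their median was −0.16, beside −0.11 for all measured genes. CAD, an enzyme of pyrimidine synthesis, was at 19.0 FPKM in the NO library and 76.7 FPKM in the control library, −1.96 (−2.01 to −1.91) on the log2 scale. NCL, the nucleolar protein nucleolin, was 1.90-fold lower and RRP12, a ribosome assembly factor, 1.89-fold lower. NPM1, an abundant nucleolar protein, was only 1.09-fold lower, and LDHA, lactate dehydrogenase A, was 1.59-fold higher; both were named after their values were seen.

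Among other immediate early and fast response genes, 8 of 21 measured genes (38.1%) were at least 1.5-fold lower and 0 at least 1.5-fold higher, with a median of −0.50. Of all measured genes, 22.4% were lower and 9.59% higher to that extent. KLF6, a zinc finger factor, was at 5.02 FPKM in the NO library and 14.5 FPKM in the control library, 2.58-fold lower. MCL1, a short-lived survival protein of the BCL2 family, was 2.48-fold lower, and KLF4, a factor of undifferentiated and epithelial cells, 2.11-fold lower. KLF4 and NR4A3 were measured through the control library alone. Of the 19 genes with at least 1 FPKM in both, 6 were at least 1.5-fold lower, with no count of all genes under that filter. EGR4 and NR4A2 were under 0.5 FPKM in both libraries, ARC was listed at 0 in the NO library and at 0.138 FPKM in the control library, and EGR2 and EGR3 were matched to no symbol. NR4A3, EGR4, NR4A2 and ARC were named after their values were seen.

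**Figure D4:**
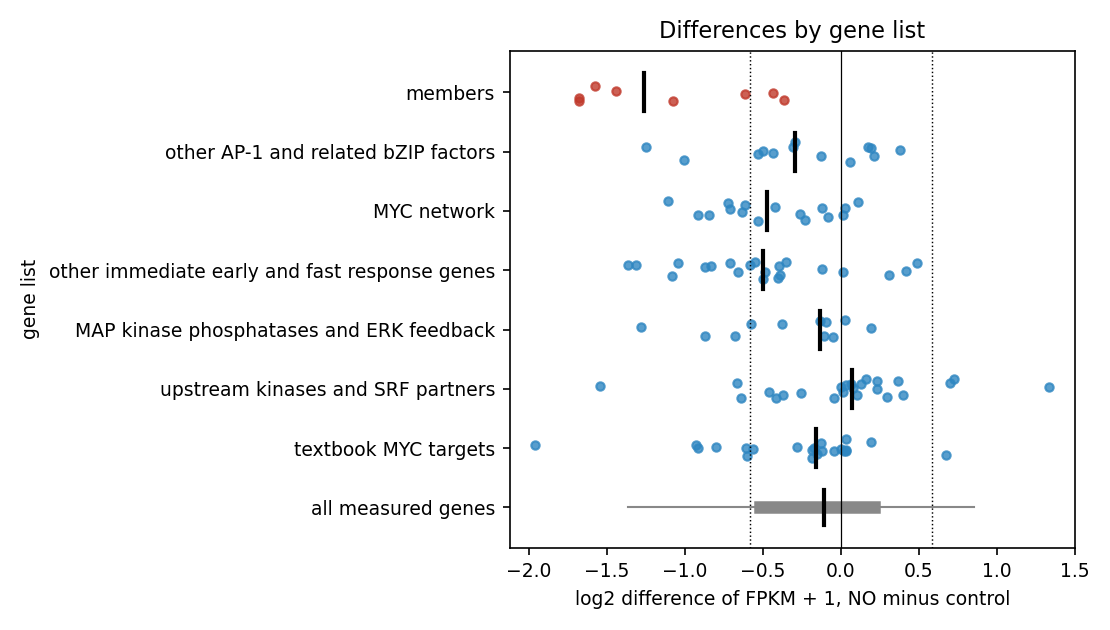
Log2 difference of FPKM + 1, NO minus control, of each measured gene (points) by list, with list medians as black bars; for all measured genes the thick line runs from the 25th to the 75th percentile (−0.52 to 0.22) and the thin line from the 5th to the 95th (−1.37 to 0.86). The members' median of −1.26 lies left of the medians of the 6 other lists plotted, which run from −0.50 to 0.07. Tissue marker lists are not plotted. Medians were lower than the members' for endoderm and foregut (−2.54), neural crest (−2.33) and neural markers (−1.94). They were higher for sarcomere (2.51), erythroid (3.69) and endothelial markers (0.23), and for heat shock and stress genes (−0.33), also not plotted. Members and lists were chosen with earlier results of these data known.

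Of 11 measured phosphatases and feedback genes of the MAP kinases, 3 (27.3%) were at least 1.5-fold lower and 0 higher, with a median of −0.14. Both the share and the median were near those of all measured genes, 22.4% and −0.11. For the median this depended on weakly expressed genes. When the cutoff was raised to 5 FPKM, the list median was −0.48 and that of all genes kept −0.09. DUSP5 and DUSP4, nuclear phosphatases of the same family as DUSP1, were at 2.81 and 11.95 FPKM in the NO library, against 8.24 and 22.7 FPKM in the control library. SPRED2, an inhibitor of the RAS to RAF step, was 1.60-fold lower. DUSP6 was matched to no symbol.

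The kinases and SRF partners upstream of immediate early genes were not lower as a list. Of 24 measured genes, 3 (12.5%) were at least 1.5-fold lower and 3 (12.5%) at least 1.5-fold higher, with a median of 0.07. The shares of all measured genes were 22.4% and 9.59%. SRF itself was at 57.6 FPKM (55.0 to 60.2) in the NO library and 55.1 FPKM (52.3 to 57.8) in the control library, with overlapping intervals. The SRF co-activator MKL1 was at 3.25 FPKM in the NO library and 11.4 FPKM in the control library, −1.54 (−1.67 to −1.42) on the log2 scale, while its paralogue MKL2 was at 10.2 FPKM in the NO library and 5.78 FPKM in the control library, 0.72 (0.62 to 0.83). RPS6KA2, a kinase activated by ERK, was 2.53-fold higher.

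Genes beside the 8 on their chromosomes differed in both directions. For each of the 8 genes the nearest measured gene on either side was taken, except for EGR1, which had a measured neighbour at lower positions only. This gave 15 genes in all, a choice made after the values were seen. Of these, 3 were at least 1.5-fold lower and 2 at least 1.5-fold higher, and their median log2 difference was 0.18. Of all measured genes, 22.4% were lower and 9.59% higher to that extent, with a median of −0.11. JDP2, which begins 43.2 kb beyond FOS, and BATF3, which ends 24.3 kb before ATF3, were 2 of the 3 lower genes; the other was FAM84B, beside MYC, at −0.67 on the log2 scale. TMED10, 18.6 kb on the other side of FOS and a protein of vesicle transport, was at 116 FPKM in the NO library and 129 FPKM in the control library, and both neighbours of MYCN were higher, DDX1 by 0.22 and FAM49A by 0.22 on the log2 scale.

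**Figure D5:**
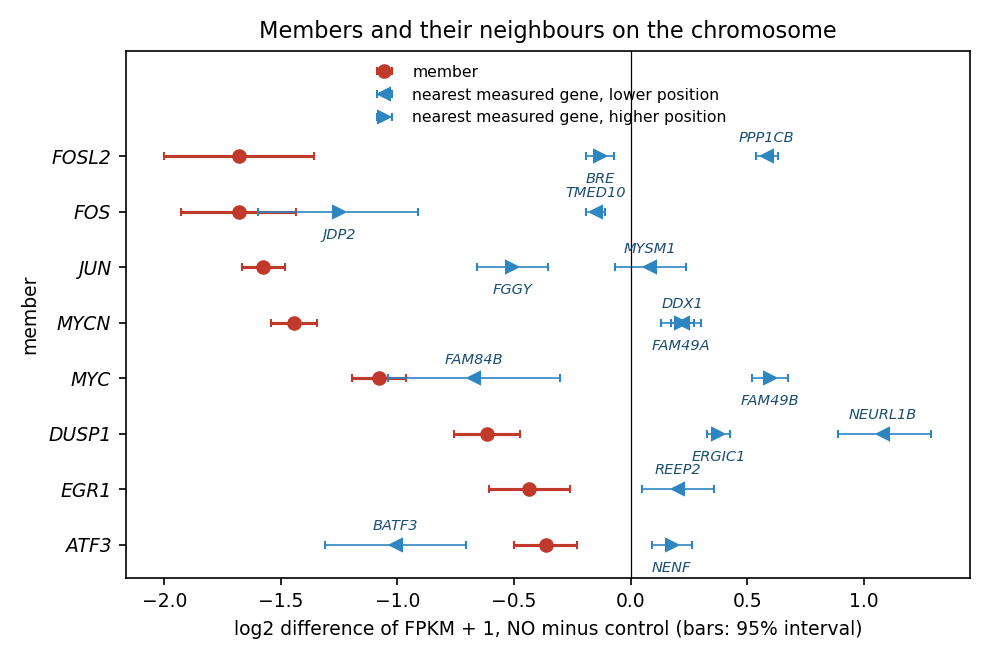
Log2 difference of FPKM + 1, NO minus control, of each of the 8 genes (red) and of the nearest measured gene on either side of it (blue triangles), with 95% intervals as bars. EGR1 had a measured neighbour at lower positions only. JDP2 beside FOS and BATF3 beside ATF3 are at −1.25 and −1.01, and the 15 neighbours have a median of 0.18, beside −0.11 for all measured genes.

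Genes with the most similar pair of levels were found by distance in log2(FPKM + 1) over the 2 libraries. For JUN this was DNMT3A, a DNA methyltransferase, at 38.4 FPKM in the NO library and 117 FPKM in the control library. For FOS it was CORO1B, an actin-binding coronin, at 6.72 FPKM in the NO library and 23.8 FPKM in the control library. For MYC it was PLEKHG3, at 6.24 FPKM in the NO library and 14.8 FPKM in the control library, and for MYCN it was Sema3F, at 27.8 FPKM in the NO library and 79.2 FPKM in the control library. With 2 libraries such likeness describes a pair of levels and no more.

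Markers of tissues and cell types differed between the libraries in both directions. Heart muscle markers were present in both libraries, with cardiac troponin T (TNNT2) at 3189 FPKM in the NO library and 604 FPKM in the control library (named after its values were seen), and 13 of 14 measured sarcomere markers were at least 1.5-fold higher, summing to 18539 FPKM in the NO library and 3142 FPKM in the control library. Of the neural crest markers, 9 of 9 were at least 1.5-fold lower, led by MSX1, SOX10 and SOX8. They summed to 45.1 FPKM in the NO library and 255 FPKM in the control library. The shares of all measured genes were 22.4% at least 1.5-fold lower and 9.59% at least 1.5-fold higher. Of the neural markers, 5 of 6 were lower to that extent (13.6 FPKM summed in the NO library and 71.3 FPKM in the control library). ELAVL4 was not lower, at 6.19 FPKM in the NO library and 5.37 FPKM in the control library (named after its values were seen). Of the endoderm and foregut markers, 7 of 7 were lower (138 FPKM in the NO library and 729 FPKM in the control library). The neural list and the endoderm and foregut list each held 12 symbols, of which 7 were matched. Some of these markers were measured through the control library alone. Among those with at least 1 FPKM in both libraries, 6 of 6 neural crest, 3 of 4 neural and 5 of 5 endoderm and foregut markers were at least 1.5-fold lower. All genes were not counted under that filter. EN2 of the neural list and CDX2 of the endoderm list were near 0 in the NO library, at 0.0844 and 0.0433 FPKM, against 22.7 and 12.8 FPKM in the control library.

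All 4 measured globin genes of the erythroid list were at least 12.02-fold higher, summing to 3400 FPKM in the NO library and 261 FPKM in the control library. Endothelial markers were closer to level, with 3 of 8 (37.5%) at least 1.5-fold higher, PECAM1 the furthest at 2.61-fold, and 0 lower. Heat shock and stress genes went both ways, with 3 of 14 (21.4%) at least 1.5-fold higher and 5 (35.7%) lower. Among all measured genes, 9.59% were higher and 22.4% lower to that extent. HSPB1 was 2.60-fold higher and HSPA8 1.88-fold lower. The part of these tissue markers in the lower FOS, JUN, MYC and MYCN values was not tested. In pooled tissue fewer cells of a type and less RNA per cell cannot be told apart. Whether both pools held the same share of tissue from outside the heart was not tested either. The interval widths imply at least 28767956 fragments in the NO library and 18246222 in the control library.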

How the data were processed

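RNA sequencing of 1 heart pool per group was analysed, so no test between groups was possible. Total RNA was extracted with Trizol, per the labels' protocols. The authors aligned reads with STAR 2.4.2a to galGal4 (Ensembl release 81) and estimated expression with Cufflinks 2.2.1, per the series design text; bcl2fastq and Cuffdiff are also named in the submitters' processing notes. The deposited values are the authors' FPKM with 95% intervals. Strand and poly(A) selection are not given in the sources used here. FPKM is a share of the library: 24.6% of the NO library and 16.3% of the control library, by FPKM, was mitochondrial. Rescaling without mitochondrial, erythroid and the 20 most abundant genes moved the median gene by 0.010 on the log2 scale.

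The 2 tables were matched on Ensembl identifier, and FPKM was added up over rows that share a symbol (Python 3.11.15, pandas 2.3.3, numpy 2.4.6). Genes averaging under 1 FPKM were left out. Differences are log2(FPKM + 1) in the NO library minus that in the control library, with an interval combining both deposited intervals. Genes were counted at 1.5-fold and 2-fold. Implied fragments are the squared ratio of FPKM to its SD, taking an interval as 2 SD on each side. Among genes with under 5 implied fragments, 91.8% in the NO library and 92.0% in the control library lay within 0.02 of a whole number. FOSL2, with about 36.2 in the NO library, lay outside that range, as did the other members. Their fragment numbers were thus not checked in this way. Positions are galGal4 as deposited, with starts moved to count from 1; all 10 mitochondrial coding genes checked then had a length divisible by 3. The counting was tried on simulated data with true changes well beyond 1.5-fold in genes of at least 5 FPKM. Changes near 1.5-fold, changes in genes of lower level and spread between pools were not simulated.

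The members and lists were chosen with earlier results of these data known. Named genes were the members, 9 paralogues or partners whatever their values, up to 3 with the largest difference from each list, and the nearest gene in level for each member; not all are printed, and genes named outside this rule are marked as chosen after their values were seen. Ratios within a library and chromosome neighbours were added after the values were seen. Symbols were matched exactly. No sequences were used here.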

Additional observations from a re-analysis of the deposited data

How the results depend on the processing

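Alternatives were an added constant of 0.1 or 5 FPKM, no filter or a mean of at least 5 FPKM, 3 rescalings, and 1 row per symbol. The members at least 1.5-fold lower numbered 5 or 6 in each, and those higher 0. All measured genes lower to that extent numbered 2420 of 10824 as deposited. They numbered 1944 with trimmed mean scaling and 1916 with upper quartile scaling. Under the filter at 5 FPKM, 5 of the 6 members left were lower, beside 1619 of 7604 genes. With 5 FPKM added, 580 genes of all measured were at least 1.5-fold higher and 1427 lower, against 1038 and 2420, and 18 genes of the 6 other lists were lower, against 29. An added constant shrinks folds of low genes by construction. The members' median log2 difference, −1.26 as deposited, was −0.78 with 5 FPKM added, −1.13 with trimmed mean scaling and −1.12 with upper quartile scaling; with the last of these, 19 genes of the other lists were lower. Only FOSL2 and EGR1 dropped out of the members under the filter at 5 FPKM. No list median changed sign in these alternatives, but the median of all measured genes turned positive with trimmed mean and upper quartile scaling. The list median of the MAP kinase phosphatases and feedback genes went from −0.14 to −0.48 under the filter at 5 FPKM. No member changed sign in the 3 rescalings, the only settings that could change the sign of a member. No paired analysis was possible because each group has 1 pool. Depth limits FOSL2 most, with about 36.2 implied fragments in the NO library.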
